A study of Homo sapiens with 20 samples.

Results

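The genes described here are 10 members of the BCL2 family, taken as the rows of the expression matrix whose Ensembl identifier maps to MCL1, BCL2, BCL2L1, BCL2L11, BMF, BBC3, PMAIP1, BID, BAX or BAK1. They are 10 of 60483 listed genes, and all 10 were among the 15687 genes tested (at least 1 FPKM in at least 2 libraries, FPKM being fragments per kilobase of gene length scaled to the library total). The matrix holds RNA sequencing of total RNA from human multiple myeloma, a cancer of plasma cells, in 5 cell models with 2 libraries for each treatment and model, 20 libraries in all. The treated groups received I3MO (indirubin-3'-monoxime, an indirubin that inhibits several kinases and binds the aryl hydrocarbon receptor), at 5 µM in ANBL6 and in ANBL6BR and at 10 µM in ARP1, RPMI8226 and U266. The matching DMSO groups of the same 5 models received the vehicle. ANBL6BR stands for ANBL6 cells labelled bortezomib resistant, set against ANBL6 cells labelled wild type, and the other lines carry the wild type label too. How the resistance was obtained, how long I3MO was given and whether the 2 libraries of a group came from separate cultures are not given in the sources used here, so p-values measure the spread between these libraries, which may be technical. Dose cannot be told apart from model between the ANBL6 forms and the other lines.

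Proteins of the BCL2 family decide whether the outer membrane of mitochondria stays intact. MCL1, BCL2 and BCL2L1 (BCL-XL) hold the membrane closed, the effectors BAX and BAK1 open pores in it, and the BH3-only proteins BCL2L11 (BIM), BMF, BBC3 (PUMA), PMAIP1 (NOXA) and BID either occupy the guardians or activate the effectors. Myeloma cells are known for their reliance on MCL1, and drugs that mimic a BH3 domain are used against BCL2.

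The depth that the FPKM steps give was lowest in the second ANBL6 I3MO library, at 12.11 M fragments, and highest in the second RPMI8226 I3MO library, at 20.31 M. The ANBL6 I3MO libraries stood apart, with 32668 and 28419 genes above 0, against 22138 and 22710 in ANBL6 DMSO. The ANBL6BR DMSO libraries differed strongly from each other for several members, and their values are given apart below. Over all tested genes the U266 I3MO pair was the least alike of the 10 pairs (r = 0.962 across genes, SD of the log2 difference 0.443), followed by the ANBL6BR DMSO pair (r = 0.97, SD 0.402). All 9 plasma cell markers reached 1 FPKM in some library, SLAMF7 in 6 of the 20 and the others in all 20. Their summed level was 217 to 472 FPKM in I3MO libraries and 237 to 626 FPKM in DMSO libraries. The 6 marker lists of other cell types had median sums of 0.022 to 0.997 FPKM over the I3MO or DMSO libraries, and in each of them 1 or 2 genes reached 1 FPKM in some library. The highest sums in a library were 10.3 FPKM in I3MO and 27.0 FPKM in DMSO for the endothelial list, through PECAM1, and 17.4 FPKM in I3MO and 14.8 FPKM in DMSO for the epithelial list, through EPCAM and KRT5. Their part in the results was not tested. In bulk RNA, fewer cells of a type and less RNA per cell cannot be told apart.

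The BH3-only genes BMF and BBC3 gave the pattern shared by most models, and the stretches before their annotated starts are shown for that reason, with that of BCL2L11 beside them as another BH3-only gene that fell in RPMI8226. All are RefSeq sequences of GRCh38.p14, read 5′ to 3′ on the gene's strand and cut where a GENCODE 29 exon of the gene begins. The stretch before the first BMF start lies at chr15:40108893-40109129 (minus strand) and that before the second at chr15:40106967-40107216 (minus). The BBC3 stretch lies at chr19:47232767-47232917 (minus) and the BCL2L11 stretch at chr2:111120664-111120913 (plus). Capitals mark motif matches.
BMF start 1: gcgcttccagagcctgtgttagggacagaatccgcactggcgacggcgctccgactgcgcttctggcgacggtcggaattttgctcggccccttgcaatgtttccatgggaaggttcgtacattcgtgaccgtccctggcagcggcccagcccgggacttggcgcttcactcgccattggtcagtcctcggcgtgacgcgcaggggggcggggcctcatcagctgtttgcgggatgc
BMF start 2: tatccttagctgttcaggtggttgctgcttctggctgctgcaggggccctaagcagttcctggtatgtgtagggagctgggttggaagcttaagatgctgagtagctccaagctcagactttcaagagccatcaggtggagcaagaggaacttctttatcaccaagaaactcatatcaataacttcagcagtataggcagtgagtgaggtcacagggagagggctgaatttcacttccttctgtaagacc
BBC3: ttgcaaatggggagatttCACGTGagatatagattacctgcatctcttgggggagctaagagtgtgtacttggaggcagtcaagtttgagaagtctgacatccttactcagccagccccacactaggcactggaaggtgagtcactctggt
BCL2L11: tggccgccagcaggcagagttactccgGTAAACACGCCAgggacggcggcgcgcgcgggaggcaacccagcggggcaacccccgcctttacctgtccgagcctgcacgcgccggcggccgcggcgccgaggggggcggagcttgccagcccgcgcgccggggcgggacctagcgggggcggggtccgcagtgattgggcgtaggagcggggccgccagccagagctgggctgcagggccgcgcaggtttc

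Motifs were searched on both strands in windows of 250 bases before to 50 bases after each start, which RefSeq gave for 9 of the 10 genes (all but MCL1). The motifs were FOXO (TGTTTAC), the ATF4 and CHOP composite element (TGATGNAA), CRE (TGACGTCA), the STAT motif (TTCNNNGAA), the E-box (CACGTG) and the core of the aryl hydrocarbon receptor site (TNGCGTG). Neither BMF window held any of them. The BBC3 window held an E-box at position -232 from the start, a motif present in 7.26% of 35116 windows. The BCL2L11 window held a FOXO match and a receptor core match that overlap in the run of capitals, at positions -223 and -218 from the start, motifs present in 3.42% and 5.51% of windows. E-boxes also stood in the BAX window, with 4 matches, and in the windows of 2 BID starts. Those 2 BID windows overlap, and the match in them is the same site. The windows of the other members held no match. A match is a run of letters, and no binding was measured here.

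**Figure D1:**
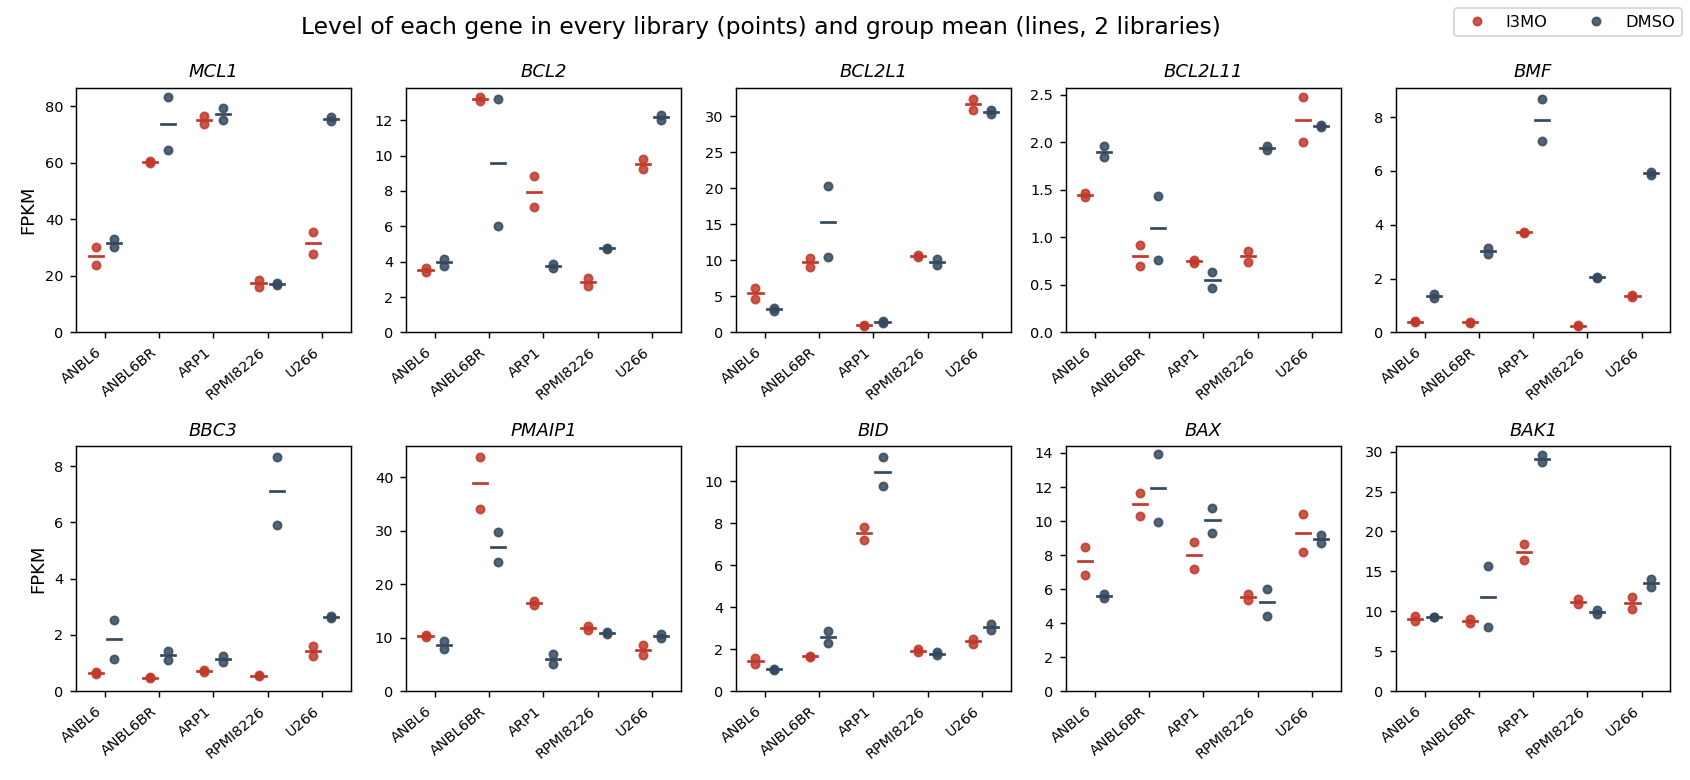
FPKM (vertical axes, from 0) of the 10 BCL2 family genes in each of the 20 libraries by model, I3MO in red and DMSO in dark blue, with group means as lines. BMF was lower in both I3MO libraries than in both DMSO libraries of all 5 models, while MCL1 separated by a wide gap in U266 and BBC3 in RPMI8226.

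I3MO was first set against DMSO within each model. Differences are of log2(FPKM + 1), I3MO minus DMSO, given ± SE, and this scale understates changes of low genes. The threshold for a call was a limma p under 0.05 after Benjamini-Hochberg adjustment over the 15687 genes. Of the 10 members, 2 were called in ANBL6, both lower, where 7.97% of tested genes were called (4.1% higher and 3.87% lower). In ANBL6BR 4 were called, 1 higher and 3 lower, against 18.4% of tested genes (10.0% higher and 8.4% lower). In ARP1 5 were called, 2 higher and 3 lower, against 37.0% of tested genes (23.1% higher and 13.9% lower). That split of all genes in ARP1, 3625 higher and 2176 lower, became 2495 higher and 3624 lower with scaling by median ratios. RPMI8226 gave 3, all lower, against 14.8% of tested genes (6.19% higher and 8.62% lower), and U266 gave 3, all lower, against 26.2% (10.5% higher and 15.8% lower). These calls share a spread estimated over all 10 groups. With the 4 libraries of a model fitted alone, 0 members passed in ANBL6, 0 in ANBL6BR, 0 in ARP1, 3 in RPMI8226 and 1, BMF, in U266. Of the 15687 tested genes, 18, 64, 227, 1668 and 974 passed in those fits, in the same order of models. The median difference of the 10 genes was -0.09 in ANBL6, -0.30 in ANBL6BR, -0.28 in ARP1, 0.04 in RPMI8226 and -0.30 in U266, where the medians of all tested genes lay between -0.02 and 0.03. These are differences, not levels, and the 10 genes did not move as a block.

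BMF (ENSG00000104081.12, chromosome 15, 40087890 to 40108892, minus strand, GENCODE 29 on hg38) encodes a BH3-only protein. It fell in all 5 models. In ANBL6 it had 0.372 and 0.433 FPKM in I3MO libraries, against 1.26 and 1.43 FPKM in DMSO libraries. In ANBL6BR the I3MO libraries had 0.356 and 0.388 FPKM, against 3.14 and 2.92 FPKM in DMSO. In no model did the I3MO and DMSO libraries of BMF overlap. Without regard to direction, groups that do not overlap are common among all tested genes, at 57.5% in ANBL6, 50.7% in ANBL6BR, 64.3% in ARP1, 58.9% in RPMI8226 and 54.7% in U266. ARP1 kept the highest level under I3MO, 3.71 and 3.73 FPKM, against 8.67 and 7.10 FPKM in DMSO. RPMI8226 had 0.232 and 0.279 FPKM in I3MO, against 2.07 and 2.03 FPKM in DMSO. U266 had 1.32 and 1.40 FPKM in I3MO, against 5.84 and 5.97 FPKM in DMSO. ARP1 under I3MO thus stayed above every DMSO library of ANBL6, ANBL6BR and RPMI8226.

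The BMF difference was -0.74 ± 0.08 in ANBL6 (limma adjusted p = 0.000214), -1.55 ± 0.08 in ANBL6BR (5.1e-07), -0.91 ± 0.08 in ARP1 (7.84e-06), -1.28 ± 0.08 in RPMI8226 (1.04e-06) and -1.55 ± 0.08 in U266 (6.8e-08). On recovered fragments scaled to the library total, with 0.5 fragments added, I3MO levels were 0.3, 0.123, 0.474, 0.125 and 0.23 times the DMSO levels in the same order of models. Only 51 of the 15687 genes, 0.325%, were called lower in all 5 models, and BMF was the BCL2 family member among them. Each of the 5 calls held with any of the 20 libraries left out, while with the 4 libraries of a model alone the adjusted p was 0.106 in ANBL6, 0.0684 in ANBL6BR and 0.0595 in ARP1. The smallest number of fragments behind a BMF value was 50, which gives a counting CV of 14.1%. Of the exon bases of BMF, 8.5% are shared with the antisense gene BMF-AS1, and the strand handling of the counting is not given in the sources used here.

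Both ANBL6 forms received 5 µM, so their responses can be compared at a matched dose. BMF fell further in ANBL6BR, with a difference of responses (ANBL6BR minus ANBL6) of -0.81 ± 0.11 (limma adjusted p = 0.00161). The joint test that the 5 responses are equal gave an adjusted p of 0.000403 for BMF. BMF levels under I3MO were close in the ANBL6 forms, whereas the DMSO level was higher in ANBL6BR.

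BBC3 (ENSG00000105327.14, chromosome 19, 47220822 to 47232766, minus strand) encodes PUMA, a strong BH3-only protein and a known p53 target. It fell in 4 models, and in all 5 both I3MO libraries lay below both DMSO libraries, which held for 426 tested genes, 2.72%. The largest fall was in RPMI8226, where I3MO libraries had 0.563 and 0.547 FPKM, against 8.31 and 5.89 FPKM in DMSO libraries. There the difference was -2.37 ± 0.19 (limma adjusted p = 6.4e-06), the sixth lowest of all tested genes, and on scaled fragments the I3MO level was 0.0797 times the DMSO level. RPMI8226 in DMSO had the highest BBC3 of the 5 models and no longer stood above the others under I3MO.

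In ANBL6, BBC3 had 0.602 and 0.684 FPKM in I3MO, against 1.16 and 2.54 FPKM in DMSO, a difference of -0.75 ± 0.19 (limma adjusted p = 0.0305). In ANBL6BR it had 0.495 and 0.465 FPKM in I3MO, against 1.13 and 1.42 FPKM in DMSO (-0.62 ± 0.19, adjusted p = 0.0391). In U266 it had 1.59 and 1.24 FPKM in I3MO, against 2.59 and 2.67 FPKM in DMSO (-0.59 ± 0.19, adjusted p = 0.0352). These 3 calls are close to the threshold. In ANBL6 the value moved to -0.39 with an adjusted p of 0.252 without DMSO replicate 2, the higher of the pair, and the call was also lost without either I3MO library (adjusted p = 0.102 and 0.135). The ANBL6BR call was lost without either library of its own I3MO pair (0.126 and 0.165) or of its DMSO pair (0.0529 and 0.182), and without several libraries of other models (0.0519 to 0.0549). The U266 call was lost without either DMSO library (0.113 and 0.135) or I3MO replicate 2 (0.163). In ARP1 BBC3 had 0.754 and 0.669 FPKM in I3MO, against 1.04 and 1.26 FPKM in DMSO, and did not pass (-0.33 ± 0.19, adjusted p = 0.207). The responses of the 5 models differed (joint test adjusted p = 0.000682). Of the 15687 genes, 221 (1.41%) were called lower in at least 4 models.

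BCL2L11 (ENSG00000153094.20, chromosome 2, 111119378 to 111168447, plus strand) encodes BIM, a BH3-only protein that binds all the guardians. It fell in RPMI8226, with 0.746 and 0.860 FPKM in I3MO libraries, against 1.97 and 1.92 FPKM in DMSO libraries (-0.71 ± 0.13, limma adjusted p = 0.00242). The DMSO pair and the I3MO pair were each tight there and far apart. In ANBL6 it had 1.43 and 1.47 FPKM in I3MO, against 1.84 and 1.96 FPKM in DMSO, which did not pass (-0.24 ± 0.13, adjusted p = 0.283). In ANBL6BR the value depended on the DMSO library, 0.698 and 0.919 FPKM in I3MO against 1.44 and 0.765 FPKM in DMSO (-0.20 ± 0.13, adjusted p = 0.352), and without DMSO replicate 2 it was -0.43 (adjusted p = 0.0165). ARP1 (0.765 and 0.732 FPKM in I3MO, 0.637 and 0.471 FPKM in DMSO) and U266 (2.00 and 2.48 FPKM in I3MO, 2.16 and 2.18 FPKM in DMSO) gave adjusted p-values of 0.339 and 0.951. The responses differed between models (joint test adjusted p = 0.0139). BCL2L11 shares 10.9% of its exon bases with MIR4435-2HG.

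PMAIP1 (ENSG00000141682.11, chromosome 18, 59899948 to 59904306, plus strand) encodes NOXA, the BH3-only protein that pairs chiefly with MCL1, and it rose in ARP1 and ANBL6BR. In ARP1 it reached 16.1 and 16.8 FPKM in I3MO libraries, against 5.00 and 7.03 FPKM in DMSO libraries, a difference of 1.33 ± 0.16 (limma adjusted p = 6.88e-05). In ANBL6BR it had 34.0 and 43.8 FPKM in I3MO, against 29.8 and 24.1 FPKM in DMSO (0.51 ± 0.16, adjusted p = 0.0432), the highest levels of PMAIP1 in the series under either treatment. The ARP1 gap was wide, while that in ANBL6BR was lost without I3MO replicate 2 (0.33, adjusted p = 0.346), without DMSO replicate 2 (0.36, adjusted p = 0.257), with scaling by median ratios (0.46, adjusted p = 0.1) and without several libraries of other models. ANBL6 had 10.2 and 10.6 FPKM in I3MO, against 7.90 and 9.38 FPKM in DMSO (adjusted p = 0.404). RPMI8226 had 12.2 and 11.5 FPKM in I3MO, against 11.0 and 10.8 FPKM in DMSO (adjusted p = 0.797). U266 lay on the other side, with 6.75 and 8.71 FPKM in I3MO, against 9.97 and 10.6 FPKM in DMSO (-0.38 ± 0.16, adjusted p = 0.103), and the joint test of equal responses gave an adjusted p of 0.00122.

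BID (ENSG00000015475.17, chromosome 22, 17734138 to 17774770, minus strand), the BH3-only protein that caspase-8 cleaves to link death receptors to mitochondria, fell in ANBL6BR and ARP1. ANBL6BR had 1.65 and 1.68 FPKM in I3MO, against 2.29 and 2.86 FPKM in DMSO (-0.42 ± 0.09, limma adjusted p = 0.00868). ARP1 had 7.21 and 7.82 FPKM in I3MO, against 9.75 and 11.1 FPKM in DMSO (-0.43 ± 0.09, adjusted p = 0.00384). The groups were separate in both models, with a smaller relative gap than for BMF, and the ANBL6BR call was lost without DMSO replicate 2 (-0.30, adjusted p = 0.0682) or without either I3MO library (0.0527 and 0.0506). In ANBL6 the level was 1.28 and 1.58 FPKM in I3MO, against 1.02 and 1.05 FPKM in DMSO (0.25 ± 0.09, adjusted p = 0.129). In RPMI8226 it was 1.99 and 1.85 FPKM in I3MO, against 1.85 and 1.70 FPKM in DMSO (adjusted p = 0.752), and in U266 2.23 and 2.50 FPKM in I3MO, against 3.18 and 2.93 FPKM in DMSO (-0.27 ± 0.09, adjusted p = 0.0537). The ANBL6 forms differed in their response, by -0.67 ± 0.13 for ANBL6BR minus ANBL6 (adjusted p = 0.0114).

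**Figure D2:**
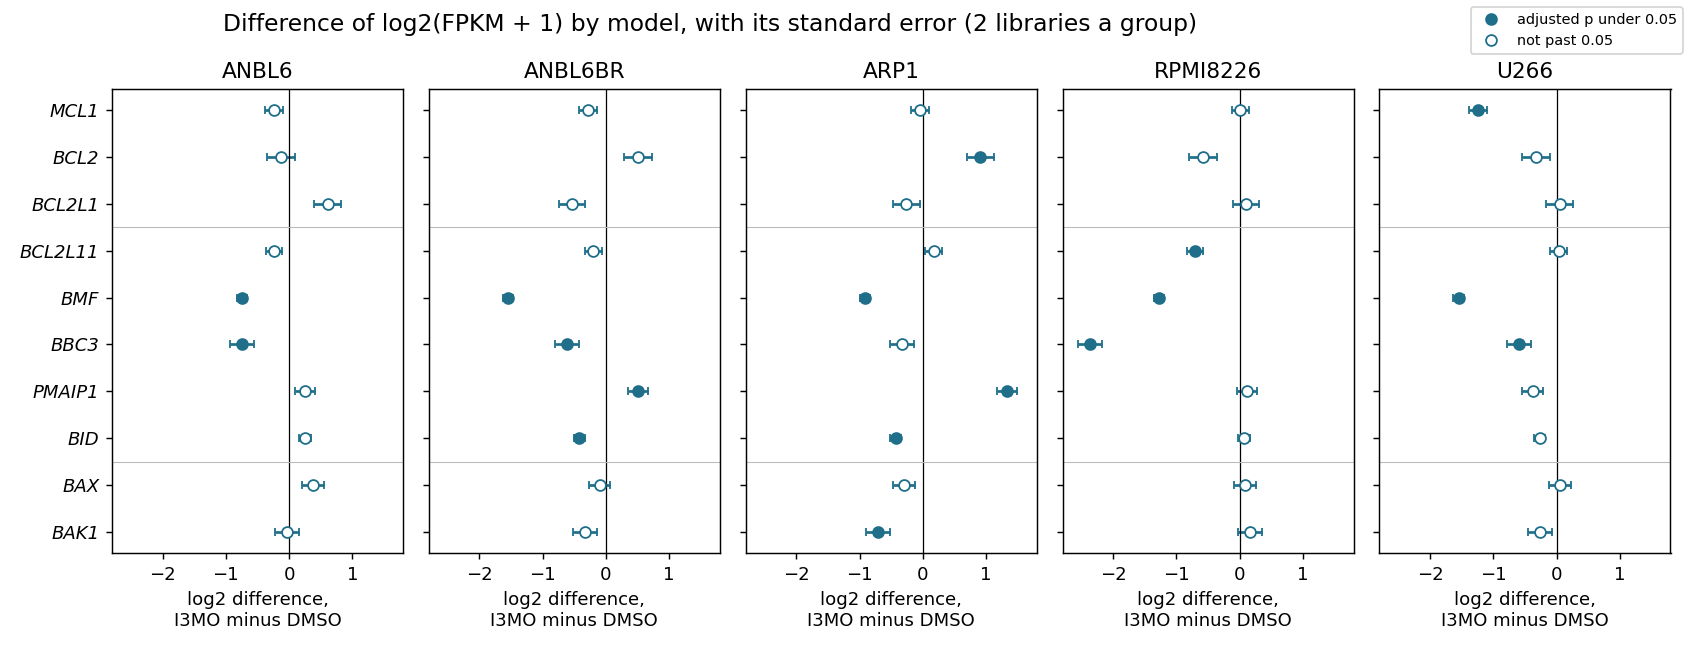
Difference of log2(FPKM + 1), I3MO minus DMSO, with SE bars, for the 10 genes in each model (2 libraries a group), with guardians on top, BH3-only genes in the middle and effectors at the bottom. Filled points passed an adjusted p of 0.05, and BMF is filled and below 0 in all 5 panels.

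Among the guardians, MCL1 (ENSG00000143384.11, chromosome 1, 150574551 to 150579738, minus strand) fell in U266. U266 had 27.6 and 35.6 FPKM in I3MO libraries, against 76.3 and 74.9 FPKM in DMSO libraries, a difference of -1.24 ± 0.14 (limma adjusted p = 4.1e-05, or 0.0512 with the U266 libraries alone). Both I3MO libraries lay under the DMSO pair by more than the spread of either, and the difference was -1.06 without I3MO replicate 1 and -1.42 without replicate 2 (adjusted p = 0.000463 and 6.65e-05). The other models gave no call. ANBL6 had 30.1 and 23.8 FPKM in I3MO, against 33.2 and 30.4 FPKM in DMSO (-0.24 ± 0.14, adjusted p = 0.355). ANBL6BR had 60.7 and 60.0 FPKM in I3MO, against 83.3 and 64.5 FPKM in DMSO (-0.28 ± 0.14, adjusted p = 0.228). In ARP1 MCL1 had 76.5 and 73.8 FPKM in I3MO, against 79.4 and 75.3 FPKM in DMSO (-0.04 ± 0.14, adjusted p = 0.934), and in RPMI8226 16.1 and 18.5 FPKM in I3MO, against 17.6 and 16.7 FPKM in DMSO (0.01 ± 0.14, adjusted p = 1.0). That the 5 responses differ was tested jointly (adjusted p = 0.00226).

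BCL2 (ENSG00000171791.11, chromosome 18, 63123346 to 63320128, minus strand) rose in ARP1, with 8.83 and 7.11 FPKM in I3MO libraries, against 3.64 and 3.86 FPKM in DMSO libraries (0.91 ± 0.22, limma adjusted p = 0.0069). The groups did not overlap, and the call was lost without I3MO replicate 1 (0.77, adjusted p = 0.0681). In ANBL6BR both I3MO libraries, at 13.1 and 13.3 FPKM, matched the first DMSO library (13.2 FPKM) and exceeded the second (6.01 FPKM). The difference there was 0.51 ± 0.22 (adjusted p = 0.151), and without DMSO replicate 1 it was 1.02 (adjusted p = 6.78e-05), so the value rests on a DMSO library. RPMI8226 had 2.63 and 3.08 FPKM in I3MO, against 4.80 and 4.73 FPKM in DMSO (-0.58 ± 0.22, adjusted p = 0.112). U266 had 9.81 and 9.23 FPKM in I3MO, against 12.0 and 12.3 FPKM in DMSO (-0.33 ± 0.22, adjusted p = 0.342). Those pairs were separate and tight, and the SE of BCL2 is pooled over all groups. Without either ANBL6BR DMSO library, whose pair is the widest, the same differences had adjusted p-values of 0.000872 and 0.000867 in RPMI8226 and 0.0163 in U266. ANBL6 had 3.65 and 3.41 FPKM in I3MO, against 3.78 and 4.14 FPKM in DMSO (adjusted p = 0.829).

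BCL2L1 (ENSG00000171552.11, chromosome 20, 31664452 to 31723989, minus strand) was called in none of the 5 models. ANBL6 had 4.68 and 6.2 FPKM in I3MO libraries, against 3.38 and 3.04 FPKM in DMSO libraries (0.61 ± 0.21, limma adjusted p = 0.0982). ANBL6BR had 10.4 and 9.12 FPKM in I3MO, against 20.2 and 10.5 FPKM in DMSO (-0.54 ± 0.21, adjusted p = 0.0972). Values were higher in I3MO in ANBL6 and lower in ANBL6BR, and the difference of these responses was -1.15 ± 0.29 (adjusted p = 0.0332). Both single values move with the ANBL6BR DMSO libraries. Without replicate 2, the lower of that pair, ANBL6BR gave -0.99 (adjusted p = 0.00051), and without either of them ANBL6 passed at 0.61 (0.00575 and 0.00578). The difference of responses lost its call without either ANBL6 DMSO library (0.0792 and 0.104), ANBL6 I3MO replicate 2 (0.13) or either ANBL6BR I3MO library (0.0643 and 0.116). In ARP1 BCL2L1 had 0.953 and 1.07 FPKM in I3MO, against 1.57 and 1.25 FPKM in DMSO, in RPMI8226 10.5 and 10.7 FPKM in I3MO, against 10.2 and 9.35 FPKM in DMSO, and in U266 32.4 and 30.9 FPKM in I3MO, against 30.9 and 30.2 FPKM in DMSO. Of the BCL2L1 exon bases 43.0% overlap the gene ABALON, and whether fragments of these genes were separated by strand is not given in the sources used here.

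Of the effectors, BAK1 (ENSG00000030110.11, chromosome 6, 33572547 to 33580293, minus strand) fell in ARP1, the model where it was highest. ARP1 had 16.4 and 18.4 FPKM in I3MO libraries, against 28.7 and 29.6 FPKM in DMSO libraries (-0.71 ± 0.19, limma adjusted p = 0.0117). The groups were well separated, and the adjusted p moved to between 0.0511 and 0.0854 without ARP1 DMSO replicate 1, DMSO replicate 2 or I3MO replicate 1. The ANBL6BR libraries had 9.03 and 8.58 FPKM in I3MO, against 15.6 and 8.07 FPKM in DMSO (-0.33 ± 0.19, adjusted p = 0.312), and without DMSO replicate 2 the value was -0.76 (adjusted p = 0.00025). ANBL6 (8.73 and 9.37 FPKM in I3MO, 9.31 and 9.33 FPKM in DMSO), RPMI8226 (11.5 and 10.9 FPKM in I3MO, 10.2 and 9.69 FPKM in DMSO) and U266 (11.8 and 10.4 FPKM in I3MO, 14.0 and 13.1 FPKM in DMSO) did not pass.

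BAX (ENSG00000087088.18, chromosome 19, 48954815 to 48961798, plus strand) was called in none of the models. ANBL6 had 6.82 and 8.49 FPKM in I3MO, against 5.73 and 5.50 FPKM in DMSO (0.38 ± 0.17, limma adjusted p = 0.204). ARP1 had 7.19 and 8.79 FPKM in I3MO, against 9.28 and 10.8 FPKM in DMSO (-0.30 ± 0.17, adjusted p = 0.205), and with scaling by median ratios this became -0.56 (adjusted p = 0.0144). In ANBL6BR, RPMI8226 and U266 the I3MO and DMSO libraries of BAX overlapped, at 10.3 and 11.7 FPKM in I3MO against 13.9 and 9.94 FPKM in DMSO, 5.34 and 5.72 FPKM in I3MO against 6.03 and 4.44 FPKM in DMSO, and 10.4 and 8.21 FPKM in I3MO against 9.15 and 8.70 FPKM in DMSO.

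The joint test of equal I3MO responses in the 5 models called 8 of the 10 genes, where 44.5% of tested genes were called. BAX and BAK1 were the members it did not call. Taking the 5 models as the replicates, with the model as a block, limma called 0 of the 10 members and 0.0% of tested genes, while 2651 genes (16.9%) had an unadjusted p under 0.05. Those genes include 2 members, BMF and BBC3. BMF had a limma difference of -1.21 ± 0.15 there (adjusted p = 0.0918), the seventeenth lowest of 15687, and it was lower in 5 of 5 models. BBC3 had -0.93 ± 0.28 (adjusted p = 0.182) and was also lower in 5 of 5. On scaled fragments the same limma test called 114 genes (0.727%), with BMF at -2.19 ± 0.29 (adjusted p = 0.0379) and BBC3 at -1.61 ± 0.39 (adjusted p = 0.0831). The difference of responses between ANBL6BR and ANBL6 called 3 members, BMF, BID and BCL2L1, all lower, against 8.47% of tested genes (4.14% higher and 4.33% lower).

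Among 4909 protein-coding genes with a mean log2(FPKM + 1) of at least 2, those most like BMF over the 20 libraries, after the mean of each model was subtracted, were MEF2D (Pearson r = 0.976), a transcription factor of muscle and lymphoid cells, and PNPLA2 (r = 0.971), the lipase that starts triglyceride breakdown. MEF2D differences were -0.61, -0.75, -0.57, -0.67 and -0.95 and PNPLA2 differences -0.33, -0.72, -0.66, -0.85 and -0.86 in ANBL6, ANBL6BR, ARP1, RPMI8226 and U266. Both were thus lower in I3MO in every model, by less than BMF. For BBC3 the most alike genes were ITGB5 (r = 0.922), an integrin subunit, and UCKL1 (r = 0.903). Their differences were widest in RPMI8226, -1.21 for ITGB5 and -0.65 for UCKL1, as for BBC3 itself. These r are descriptions over libraries that share models and treatments, and they come without a test.

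**Figure D3:**
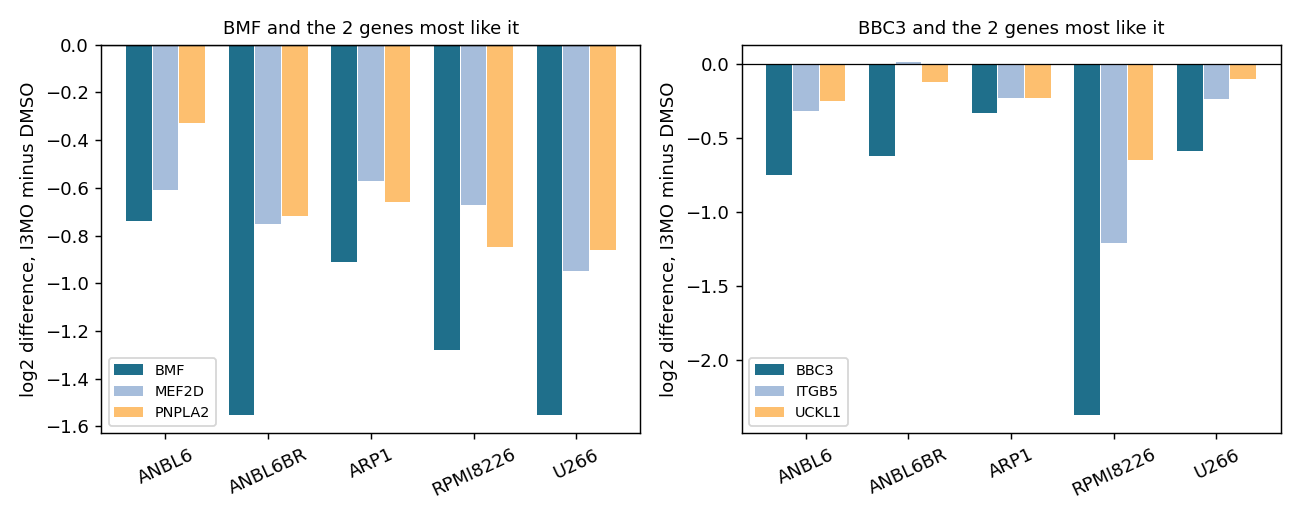
Difference of log2(FPKM + 1), I3MO minus DMSO, by model for BMF with MEF2D and PNPLA2 and for BBC3 with ITGB5 and UCKL1, as bars from 0. BMF bars run from -0.74 to -1.55, and the BBC3 bar of RPMI8226, at -2.37, is the longest.

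ANBL6BR was next set against ANBL6 in DMSO, the comparison of the bortezomib-resistant form with its parent line. Of the 10 members 8 were called, 7 higher and 1 lower, where 51.8% of tested genes were called (27.0% higher and 24.8% lower). The median difference of the 10 genes was 0.88, against 0.0 over all tested genes. All 3 guardians were higher in ANBL6BR, as were BMF, PMAIP1, BID and BAX, while BCL2L11 was lower.

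MCL1 had 83.3 and 64.5 FPKM in ANBL6BR, against 33.2 and 30.4 FPKM in ANBL6, a difference of 1.18 ± 0.14 (limma adjusted p = 1.37e-05). BCL2L1 had 20.2 and 10.5 FPKM in ANBL6BR, against 3.38 and 3.04 FPKM in ANBL6 (1.89 ± 0.21, adjusted p = 6.28e-06). BCL2 had 13.2 and 6.01 FPKM in ANBL6BR, against 3.78 and 4.14 FPKM in ANBL6 (1.01 ± 0.22, adjusted p = 0.00202). Each guardian was above both ANBL6 libraries in both ANBL6BR libraries, as were 36.7% of tested genes, and 71.2% had groups that did not overlap in either direction. The size depends on the resistant library, since without ANBL6BR replicate 1 the differences were 1.0 for MCL1, 1.45 for BCL2L1 and 0.5 for BCL2, and without replicate 2 they were 1.36, 2.34 and 1.52. With only the libraries of both ANBL6 forms fitted, of both treatments, 6 of the 10 members passed and BCL2 did not (1.01, limma adjusted p = 0.0521). That fit called 7742 of the 15687 tested genes.

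PMAIP1 had 29.8 and 24.1 FPKM in ANBL6BR, against 7.90 and 9.38 FPKM in ANBL6 (1.53 ± 0.16, limma adjusted p = 3.68e-06). BAX had 13.9 and 9.94 FPKM in ANBL6BR, against 5.73 and 5.50 FPKM in ANBL6 (0.95 ± 0.17, adjusted p = 0.00042). BID had 2.29 and 2.86 FPKM in ANBL6BR, against 1.02 and 1.05 FPKM in ANBL6 (0.81 ± 0.09, adjusted p = 1.1e-05). Guardians, some BH3-only members and an effector were thus higher in the same cells. Of 9 tested family genes outside the 10 members, 2 were higher and 2 lower, where 51.8% of tested genes were called. The BH3-only gene BIK was among the lower (-2.56 ± 0.15, limma adjusted p = 1.33e-08). BMF had 3.14 and 2.92 FPKM in ANBL6BR, against 1.26 and 1.43 FPKM in ANBL6 (0.78 ± 0.08, adjusted p = 3.01e-06).

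BCL2L11 had 1.44 and 0.765 FPKM in ANBL6BR, against 1.84 and 1.96 FPKM in ANBL6 (-0.48 ± 0.13, limma adjusted p = 0.00595). The difference shrank to -0.25 without ANBL6BR replicate 2. The call was lost with only the libraries of both ANBL6 forms fitted (limma adjusted p = 0.0615). BBC3 had 1.13 and 1.42 FPKM in ANBL6BR, against 1.16 and 2.54 FPKM in ANBL6 (-0.28 ± 0.19, adjusted p = 0.242), and it passed without ANBL6 replicate 1 (-0.64, adjusted p = 0.00567). BAK1 had 15.6 and 8.07 FPKM in ANBL6BR, against 9.31 and 9.33 FPKM in ANBL6 (0.25 ± 0.19, adjusted p = 0.318). Its direction rests on a library, with 0.69 (adjusted p = 6.88e-05) without ANBL6BR replicate 2 and -0.19 (adjusted p = 0.123) without replicate 1.

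**Figure D4:**
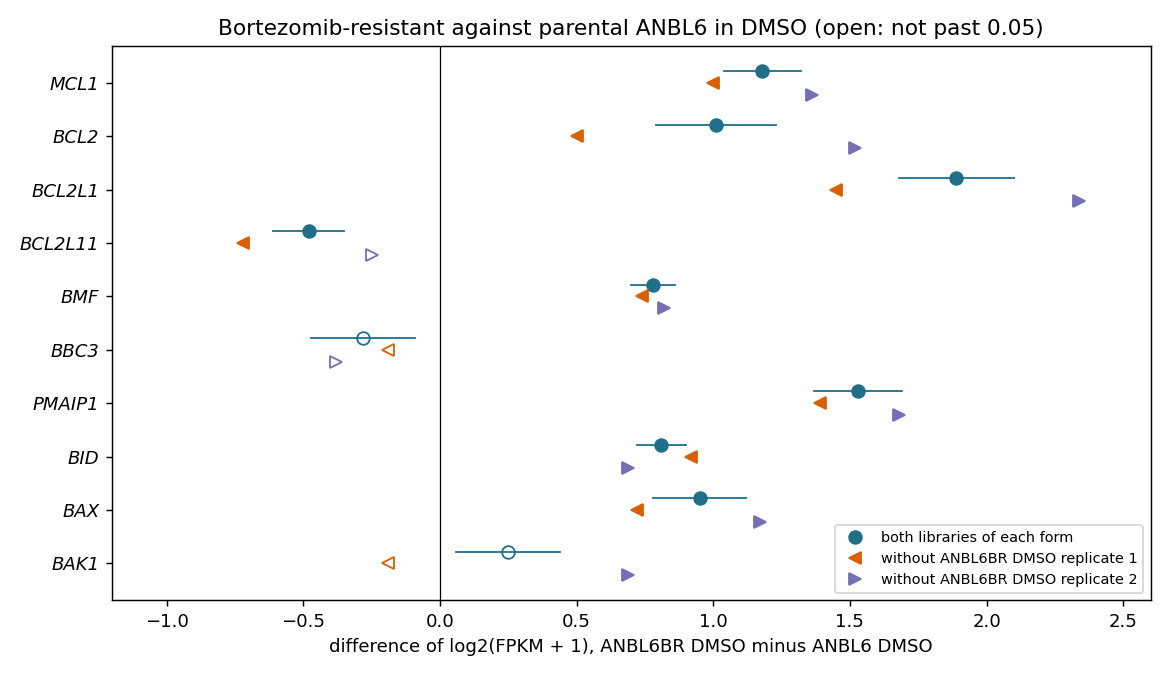
Difference of log2(FPKM + 1) in DMSO, ANBL6BR minus ANBL6, for the 10 genes with both libraries of each form (circles, SE bars) and without either ANBL6BR library (triangles); open symbols did not pass an adjusted p of 0.05. BCL2L1 runs from 1.45 to 2.34, and BAK1 changes sign.

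The levels of the 10 genes in DMSO differed between the 5 models for 10 of 10 genes in the joint limma test, where 90.0% of tested genes were called. Levels between genes are set side by side only after recomputation per merged exon length, because the lengths behind the deposited FPKM sum the exons of all transcripts and exceed the merged exons by a ratio of 1.03 for BCL2 to 7.78 for BCL2L11. On that scale MCL1 had the highest median over the 10 DMSO libraries, 155 FPKM, followed by BCL2L1 at 36.9, BAK1 at 33.9, BAX at 31.2, PMAIP1 at 18.5, BCL2L11 at 14.7, BID at 12.9, BMF at 7.74, BBC3 at 5.72 and BCL2 at 4.92. In the I3MO libraries the medians were 73.3 for MCL1, 36.8 for BCL2L1, 8.23 for BCL2, 1.83 for BBC3 and 1.05 for BMF. These medians run over models, so they describe the series and are no test.

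Guardian levels per merged exon length differed in composition between lines. ARP1 had 173 ± 6.55 for MCL1, 5.32 ± 0.854 for BCL2L1 and 3.87 ± 0.154 for BCL2 (SD, n = 2). U266 had 169 ± 2.24 for MCL1, 115 ± 1.68 for BCL2L1 and 12.6 ± 0.218 for BCL2. RPMI8226 had 38.2 ± 1.39 for MCL1 and 36.9 ± 2.38 for BCL2L1. MCL1 and BCL2L1 were thus near each other in RPMI8226, while MCL1 stood far above BCL2L1 in ARP1. The merged length takes the exons of all annotated transcripts, whichever of them is expressed. Of the BCL2L1 exon bases 43.0% overlap ABALON, with strand handling not given, so the ratio of these genes within a line is uncertain.

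**Figure D5:**
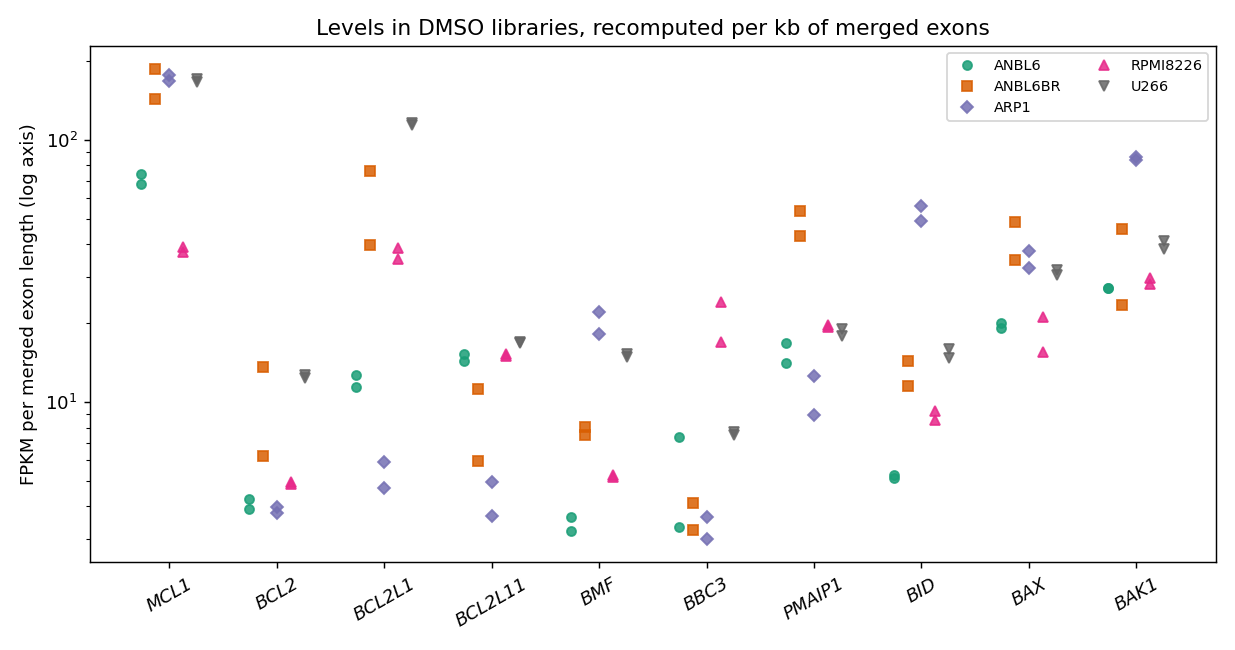
Levels in the DMSO libraries of each model (2 points a model) as FPKM recomputed per merged exon length, on a log axis. MCL1 runs from 37.3 to 186, and BCL2L1 spans the widest range, from 4.71 in ARP1 to 116 in U266.

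Pairwise comparisons of models in DMSO called between 50.8% (RPMI8226 against ARP1) and 68.0% (U266 against ANBL6) of tested genes. The others called 60.4% for ARP1 and 53.8% for RPMI8226 against ANBL6, 60.1% for ARP1, 64.1% for RPMI8226 and 64.9% for U266 against ANBL6BR, 59.1% for U266 against ARP1 and 61.6% for U266 against RPMI8226. In the order of DMSO levels, by deposited FPKM of a gene, MCL1 was alike in ARP1 (77.3 ± 2.94, SD, n = 2), U266 (75.6 ± 1.0) and ANBL6BR (73.9 ± 13.3), where neighbours did not differ beyond their spread, then dropped to ANBL6 (31.8 ± 2.01) and RPMI8226 (17.1 ± 0.622). For BCL2L1 all neighbours in the order U266, ANBL6BR, RPMI8226, ANBL6 and ARP1 differed, with ANBL6BR over RPMI8226 the closest step (0.54 ± 0.21, limma adjusted p = 0.0387). BCL2 ran from U266 (12.2 ± 0.211 FPKM) and ANBL6BR (9.61 ± 5.09), not distinguishable, to RPMI8226 (4.77 ± 0.0508), ANBL6 (3.96 ± 0.260) and ARP1 (3.75 ± 0.149), again without a step past the test among these.

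BMF differed at each step from ARP1 (7.88 ± 1.12 FPKM) through U266 (5.91 ± 0.0924), ANBL6BR (3.03 ± 0.153) and RPMI8226 (2.05 ± 0.0265) to ANBL6 (1.34 ± 0.119, SD, n = 2). BBC3 was set apart in RPMI8226 (7.10 ± 1.71 FPKM), which exceeded U266 (2.63 ± 0.0598) by 1.14 ± 0.19 (limma adjusted p = 0.000169), with no further step past the test down to ARP1 (1.15 ± 0.154). PMAIP1 stood highest in ANBL6BR (27.0 ± 4.06 FPKM), 1.23 ± 0.16 over RPMI8226 (adjusted p = 1.83e-05). ARP1 stood highest for BID (10.4 ± 0.983 FPKM, 1.5 ± 0.09 over U266, adjusted p = 2.39e-08) and for BAK1 (29.1 ± 0.650 FPKM, 1.05 ± 0.19 over U266, adjusted p = 0.000424). BCL2L11 was near 2 FPKM in U266, RPMI8226 and ANBL6, which did not differ, and lowest in ARP1 (0.554 ± 0.118). BAX had a single step past the test, from U266 (8.93 ± 0.321 FPKM) to ANBL6 (5.62 ± 0.163, adjusted p = 0.00851).

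Of 13 other BCL2 family genes 9 were tested, and in each of the 5 I3MO comparisons 2 of these 9 were called. Of all tested genes 7.97% were called in ANBL6, 18.4% in ANBL6BR, 37.0% in ARP1, 14.8% in RPMI8226 and 26.2% in U266. BNIP3L, a mitophagy receptor with a BH3-like stretch, fell in ANBL6 (1.86 ± 0.279 FPKM in I3MO, 2.98 ± 0.339 FPKM in DMSO, SD, n = 2), ANBL6BR, RPMI8226 and U266, by -0.48 to -0.73 on the log2 scale, and not past the test in ARP1 (-0.17, limma adjusted p = 0.341). BIK, a BH3-only gene of the endoplasmic reticulum, fell in ARP1 (1.47 ± 0.00942 FPKM in I3MO, 4.86 ± 0.570 FPKM in DMSO), ANBL6BR (-0.78) and RPMI8226 (-0.57). HRK, a BH3-only gene of neurons and lymphoid cells, rose in U266 (3.25 ± 0.143 FPKM in I3MO, 1.10 ± 0.301 FPKM in DMSO, adjusted p = 1.89e-05) and, at a low level, in ARP1 (0.337 ± 0.141 FPKM in I3MO, 0.080 ± 0.0201 FPKM in DMSO, adjusted p = 0.0407).

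Of 18 partners and regulators of protein stability, all tested, 2 were called in ANBL6, 2 in ANBL6BR, 9 in ARP1, 2 in RPMI8226 and 3 in U266. The shares of all tested genes called were 7.97%, 18.4%, 37.0%, 14.8% and 26.2% in the same order. TPT1, a partner that stabilises MCL1, rose in ANBL6 (43.4 ± 3.16 FPKM in I3MO, 26.9 ± 1.44 FPKM in DMSO, limma adjusted p = 0.0186) and in ANBL6BR (57.1 ± 4.59 FPKM in I3MO, 35.5 ± 2.93 FPKM in DMSO, adjusted p = 0.00827). It was also higher in ARP1 (0.36), RPMI8226 (0.46) and U266 (0.39), not past the test. The joint limma test did not call its responses unequal between models (adjusted p = 0.527). FBXW7, an adaptor of a ubiquitin ligase that targets MCL1, rose in ARP1 (2.41 ± 0.268 FPKM in I3MO, 1.19 ± 0.205 FPKM in DMSO, adjusted p = 0.00243). The joint limma test of equal responses did not call FBXW7 (adjusted p = 0.0603). TMBIM6, a membrane protein that inhibits BAX-driven death, rose in U266 (112 ± 28.5 FPKM in I3MO, 41.4 ± 0.302 FPKM in DMSO, adjusted p = 2.18e-05), where the I3MO pair was wide. HUWE1, another ubiquitin ligase of MCL1, passed in none of the 5, with differences between -0.47 and 0.05.

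Downstream of mitochondria, 16 of 18 listed caspases, apoptosome parts and inhibitors were tested, and 0 were called by limma in ANBL6, 6 in ANBL6BR, 7 in ARP1, 2 in RPMI8226 and 5 in U266. The shares of all tested genes called were 7.97%, 18.4%, 37.0%, 14.8% and 26.2% in the same order. CASP2, an initiator caspase, fell in ANBL6BR (3.12 ± 0.0537 FPKM in I3MO, 6.36 ± 0.218 FPKM in DMSO, SD, n = 2), ARP1, RPMI8226 and U266, by -0.84 to -0.39 on the log2 scale. CYCS, cytochrome c, rose in ANBL6BR (34.0 ± 1.83 FPKM in I3MO, 22.5 ± 3.32 FPKM in DMSO, adjusted p = 0.017) and ARP1 (93.9 ± 4.56 FPKM in I3MO, 49.7 ± 13.4 FPKM in DMSO, adjusted p = 0.000478). Of 13 tested genes of the death receptor pathway, 1 was called in ANBL6, 2 in ANBL6BR and 3 in each of ARP1, RPMI8226 and U266, against the same shares of all tested genes. CFLAR, the inhibitor that competes with caspase-8, fell in U266 (-0.73, adjusted p = 0.00243), and TNFRSF10A, a receptor for TRAIL, passed in no model. TRADD, an adaptor of the TNF receptor, rose in ANBL6BR (8.69 ± 0.348 FPKM in I3MO, 3.98 ± 1.0 FPKM in DMSO, adjusted p = 0.000677).

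Of 24 transcription regulators known to act on family members 20 were tested, of which 4 were called in ANBL6, 7 in ANBL6BR, 10 in ARP1, 6 in RPMI8226 and 10 in U266. The shares of all tested genes called were 7.97%, 18.4%, 37.0%, 14.8% and 26.2% in the same order. ATF4, the factor of the integrated stress response, rose in all 5 models (0.293% of tested genes did), from 0.38 ± 0.10 on the log2 scale in ANBL6BR (132 ± 3.13 FPKM in I3MO, 102 ± 8.88 FPKM in DMSO, SD, n = 2) to 1.31 ± 0.10 in U266 (424 ± 33.4 FPKM in I3MO, 170 ± 6.42 FPKM in DMSO). FOXO4, a forkhead factor, fell in all 5, most in RPMI8226 (1.5 ± 0.116 FPKM in I3MO, 4.93 ± 0.0864 FPKM in DMSO, limma adjusted p = 4.19e-06). DDIT3, which encodes CHOP, rose in ANBL6BR (1.12 ± 0.23, limma adjusted p = 0.00518) and U266 (1.25 ± 0.23, adjusted p = 0.00152). It was also higher in ANBL6 (0.67), ARP1 (0.29) and RPMI8226 (0.49), not past the test. The joint limma test of equal responses did not call DDIT3 (adjusted p = 0.0977). In ANBL6BR it had 7.24 ± 3.63 FPKM in I3MO, a wide pair, against 2.6 ± 0.259 FPKM in DMSO. In U266 it had 7.35 ± 0.0867 FPKM in I3MO, against 2.51 ± 0.2 FPKM in DMSO. DDIT3 shares 31.6% of its exon bases with MARS1 and MBD6, and strand handling is not given. E2F1, the cell-cycle factor, fell in ANBL6BR (-1.35), ARP1 (-0.90) and U266 (-1.66). Whether these regulators had a part in the members' differences was not tested.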

How the data were processed

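The authors deposited FPKM for 60483 genes in 20 libraries, as a joint table and as 20 single-library tables with equal values. Per the submitters' processing notes, Trimmomatic (0.32 and 0.36 are named), STAR, SAMtools and hg38 were used; no source used here gives the counting tool. Symbols came from a gene name table (56321 of 60483 identifiers matched) and positions from GENCODE 29.

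Values were log2(FPKM + 1) of 15687 genes with at least 1 FPKM in at least 2 libraries, fitted with limma 3.58.1 in R 4.3.3 (a mean per group, an intensity trend of the variance, two-sided tests, Benjamini-Hochberg adjustment, threshold 0.05). Comparisons set I3MO against DMSO by model and over the 5 models, ANBL6BR against ANBL6, the difference of their responses, and joint tests across models. Whole fragments were recovered for all 15687 tested genes (within 0.05 fragments), since steps between FPKM values give the length used; that length equals the summed exons of all transcripts for 95.5% of 1156 checked genes. Errors from fragments cover counting only. Fragments scaled to the library total (12.11 M to 20.31 M), with 0.5 added, is an alternative chosen after seeing the data.

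Members, lists and tests were chosen with earlier results of these data known. All members are named; from each other list up to 4 genes with the smallest p over the 5 models could be named, and for members called in at least 3 I3MO comparisons the 2 most alike genes. Alternatives were the added constant, filters, scaling, merged exon lengths, the variance trend, the libraries fitted, a replicate block and each library left out. The fit was tested on simulated data.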

Additional observations from a re-analysis of the deposited data

Results flagged for a closer look

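The I3MO response differed between the 5 models in the joint limma test for 8 of the 10 genes, where 44.5% of tested genes were called. The adjusted p was 0.00226 for MCL1, 0.0112 for BCL2, 0.0495 for BCL2L1, 0.0139 for BCL2L11, 0.000403 for BMF, 0.000682 for BBC3, 0.00122 for PMAIP1 and 0.00451 for BID. For BMF the response had the same sign in all 5 models and differed in size. For PMAIP1 it was 1.33 in ARP1 and -0.38 in U266. For BCL2L1 the joint test lies at the threshold and was lost in many of the alternatives. ARP1, RPMI8226 and U266 share a dose of 10 µM, while dose and model cannot be told apart between these lines and the ANBL6 forms. Between the ANBL6 forms, at 5 µM, the response in ANBL6BR differed from that in ANBL6 for BMF (adjusted p = 0.00161), BID (adjusted p = 0.0114) and BCL2L1 (adjusted p = 0.0332). Of all tested genes 8.47% were called in that comparison. With only the libraries of the ANBL6 forms fitted, BID and BCL2L1 lost the call (limma adjusted p = 0.0886 and 0.2).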

How the results depend on the processing

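With 2 libraries a group, most calls rest on a spread pooled over the 10 groups. Fitting only the libraries compared called 0 of the 10 genes in ANBL6, 0 in ANBL6BR, 0 in ARP1 and 1 in U266 (BMF). With the libraries of both ANBL6 forms and both treatments it called 6 for ANBL6BR against ANBL6 and 1 for the difference of responses. Of the 15687 tested genes it called 7742 and 317 in these comparisons. Over the 5 models this setting took all 20 libraries, not the 10 group means, as replicates, with the model as a block. It then called 2 members (BMF and BBC3) and 3638 of 15687 tested genes. Its p-values measure the spread of libraries together with that between models, so they cannot stand for models as replicates. No filter on low values gave 2 in ANBL6BR, and over the 5 models a stricter filter gave 1 and recovered fragments scaled to the library total 1, BMF in each case. With a library left out the counts ran from 1 to 3 in ANBL6, 1 to 4 in ANBL6BR, 3 to 5 in ARP1, 3 to 4 in RPMI8226, 2 to 6 in U266, 8 to 9 for ANBL6BR against ANBL6, 2 to 4 for the difference of responses, 7 to 9 for equal responses, 0 to 0 over the 5 models and 10 to 10 for DMSO levels. The 6 in U266 were reached without either ANBL6BR DMSO library, when BCL2, BAK1 and BID passed too. With the replicate block 1 was called in ANBL6 and 2 in ANBL6BR, and of 100 single values 7 lost their call and 93 did not change side. Same-numbered libraries did not deviate together (correlations of -0.11 to 0.03), so they share a number only. No alternative reversed the sign of a called value. Scaling by median ratios moved the median of all genes by -0.0324 to 0.0209, and single genes could move by more. The factors were 0.8819 and 0.9289 in ARP1 DMSO libraries, against 1.133 and 1.08 in ARP1 I3MO libraries. The difference of BAX in ARP1 moved from -0.30 to -0.56. Over all tested genes, no filter gave 4181 calls in ANBL6 against 1250 with the filter, the replicate block 456, and the stricter filter 81 over the 5 models against 0. Fits of only the libraries compared gave 18 in ANBL6, 64 against 2888 in ANBL6BR, 227 against 5801 in ARP1, 1668 against 2323 in RPMI8226 and 974 against 4117 in U266. The cause of these changes was not tested.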
